A study of Homo sapiens with 6 samples.

Results

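The 41 antioxidant, glutathione and NRF2 genes described here were chosen by name: they are the rows of a table of 54261 gene rows whose symbol is NFE2L2, KEAP1 or BACH1, or a gene for an enzyme, iron-storage protein or target gene that is commonly grouped with NRF2 and with glutathione, thioredoxin or NADPH metabolism. All 41 had a row. The libraries are total RNA of 786-O, an established line from a human clear-cell renal carcinoma, and of its derivative 7R, which the labels describe as resistant to sunitinib, an inhibitor of receptor tyrosine kinases. Each line gave 3 libraries, called control (786-O) and resistant (7R) here. The comparison asked how the transcript levels of these genes differed between the resistant line and its parent. The labels name no genetic change, give no sunitinib dose, and do not say whether the drug was present at harvest or whether 7R is 1 clone. Nothing says that replicate libraries came from separate cultures. The p-values therefore set the difference between the lines only against the spread among these libraries, and that spread may be technical. As with any bulk RNA, fewer cells that carry a transcript and less of it per cell cannot be told apart.

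NRF2, the protein of NFE2L2, is a transcription factor that KEAP1 holds for degradation by a CUL3 ubiquitin ligase. Oxidants and electrophiles modify KEAP1, NRF2 then escapes, pairs with small MAF proteins and binds antioxidant response elements near genes for glutathione synthesis, thioredoxin and quinone reduction, NADPH supply and iron storage, while BACH1 competes for such elements. The pathway is studied in renal carcinoma because NRF2 and KEAP1 are altered in a share of kidney tumours and because its targets detoxify drugs.

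The control libraries held between 48264905 and 52221491 counts and the resistant ones between 37919629 and 38131634. Levels are CPM, counts set against a common library total that was scaled by a TMM factor, and these factors ran from 0.867 to 0.913 for control and from 1.12 to 1.14 for resistant libraries. Fold changes are resistant over control, and adjusted p-values are those of edgeR's quasi-likelihood test over 16642 genes unless another fit is named. The median log2 fold change of all genes was 0.05, and it was 0.39 when libraries were scaled by total counts alone. Resistant replicate 1 stood apart from the other resistant libraries (its pairs gave chi-square values of 62.9 and 60.1 per degree of freedom, against 8.94 for the other pair). Control replicate 1 stood apart less, with 26.5 and 35.5 against 12.4. Transcript GC content moved with the fold change over all 13960 tested genes that had a GC value (Spearman's rho -0.68, over genes, which are not replicates). Between libraries of the same line rho with GC content reached 0.54 (control replicates 1 and 3) and -0.57 (resistant replicates 1 and 2), so the dependence was not confined to the comparison of the lines. The fold change of each tested antioxidant gene is therefore given also with a smooth dependence on GC content and transcript length taken out of each library, which would remove a biological difference tied to GC content too. The cause of the trend was not tested.

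Of 10 kidney and renal carcinoma markers, CA9 was at 0 in all libraries, 7 fell and 0 rose, while after GC and length adjustment 5 were lower and 3 higher (PAX8, PAX2 and NNMT). Their summed level was 12580 to 13790 CPM in control and 3588 to 4456 in resistant libraries, most of it VIM, which is not specific to kidney, and without VIM, a sum added after seeing the data, it was 3060 to 3666 and 1404 to 1667 CPM. Brain markers were read because the extraction label names a brain region, although the rest of the labels give 786-O. Of these 12 markers 8 were under 1 CPM in every library, among them AQP4 and AIF1, which was at 0. The 12 summed to 51.5 to 53.2 CPM in control and 53.8 to 59.0 CPM in resistant libraries. Before adjustment 3 rose (AQP4, MBP and SNAP25) and 2 fell (NRGN and GAD1), as many as after it. Blood and stromal markers summed to 3.75 to 5.59 and 3.13 to 4.88 CPM, and PTPRC and CD3E were at 0. The part of any of these markers in the values below was not tested.

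Among the 38 antioxidant genes that passed the low-count filter, 10 rose and 18 fell in the resistant line, 26.3% and 47.4% of them, beside 39.3% and 36.9% of all genes tested. Those that rose were NFE2L2, BACH1, GCLC, GCLM, TXNRD1, PRDX3, GPX8, MGST1, AKR1C1 and SOD2. The 18 that fell held KEAP1, NQO1, OSGIN1, GSS, 4 peroxiredoxins, GPX1, GPX4, GSTP1, the 3 pentose phosphate enzymes and both ferritin chains. In 30 of the 38 (78.9%) the groups did not overlap, near the 80.3% of all genes tested. Their median log2 fold change was -0.29. Scaled by total counts alone, 17 were higher and 13 lower, beside 7848 and 4721 of the 16642 genes tested. Their median was then 0.05 against 0.39 for all genes. The 7 called higher there and not with TMM were GSR, PRDX1, GSTM3, AKR1C3, AIFM2, CAT and SOD1, with log2 fold changes from 0.40 to 1.08 (adjusted p from 4.36e-04 to 0.0376).

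After GC and length adjustment the balance was 13 higher and 12 lower (34.2% and 31.6%), beside 33.9% and 33.1% of the 13960 genes in that fit, so these shares were close to the background. The median was then 0.05, against 0.01 for all genes. The same call stood with and without adjustment for 12 genes, 5 higher (NFE2L2, GCLC, TXNRD1, AKR1C1 and SOD2) and 7 lower (KEAP1, NQO1, GSS, TXN, PRDX4, PRDX6 and GPX1). A further 8 turned from one direction to the other (BACH1, PRDX3 and MGST1 to lower, and SRXN1, PRDX2, PRDX5, GPX4 and TKT to higher), 8 lost their call, and 5 gained one. As shares of the 38, 31.6% kept, 21.1% turned, 21.1% lost and 13.2% gained a call, beside 46.1%, 9.61%, 22.5% and 11.3% of the 13960 genes. Over the 38 genes GC content and log2 fold change had a Spearman's rho of -0.79. The 10 that rose had a median GC content of 40.7% and the 18 that fell one of 56.1%.

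**Figure D1:**
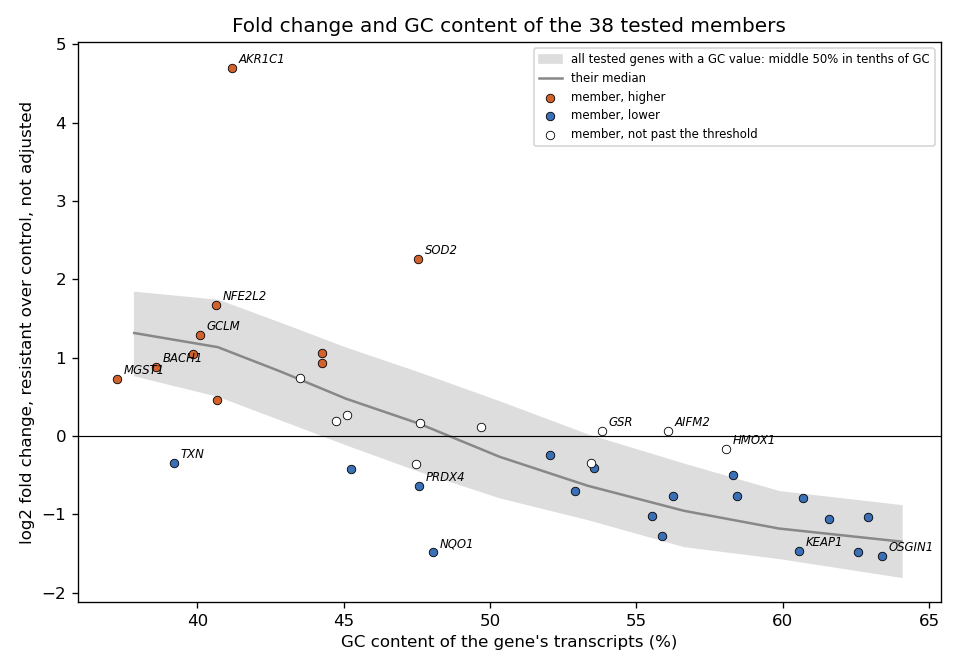
Each point is 1 of the 38 tested antioxidant genes, placed by the GC content of its transcripts (x axis, percent) and its log2 fold change before adjustment (y axis); the grey line and band are the median and the middle 50% of all tested genes with a GC value, in 10 bins of GC content. SOD2 (2.26) and AKR1C1 (4.70) lie far above the band, TXN (-0.34) and NQO1 (-1.49) far below it, and KEAP1 (-1.47) and OSGIN1 (-1.53) lie inside it.

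To show what the promoters hold, the core of the antioxidant response element was searched for. The search used the letters TGACNNNGC, on both strands, in RefSeq promoters of GRCh38.p14 that run from 250 bases before to 50 after the start. Some matches hold TGANTCA, the AP-1 site, as well. Of the 41 genes 33 had a promoter in the table, with 48 promoters in all. A match stood in 9 of the 48 (18.8%), beside 13.4% of all 35116 promoters and 14.6% of those of tested genes. These 9 belong to 8 genes, of which 3 rose (GCLM, TXNRD1 and MGST1), 3 fell (KEAP1, GSTP1 and PGD), 1 did not pass the test (AIFM2) and 1 was too low to test (GPX2). Here and beside the sequences, rose and fell are calls before adjustment. After GC and length adjustment TXNRD1 and AIFM2 were called higher, KEAP1 and MGST1 lower, and GCLM, GSTP1 and PGD were not called. Among called genes whose promoters in the table held no match, 7 rose and 12 fell. Matches of genes that rose and of genes that fell are printed here side by side because the same core stands in both, each 5′ to 3′ with the core in capitals. GCLM and KEAP1 share the core letters, and their window lies on the strand opposite to the gene.
GCLM (rose), chr1:93909436-93909484, plus strand: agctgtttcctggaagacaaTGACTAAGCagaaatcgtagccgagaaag
KEAP1 (fell), chr19:10502774-10502822, plus strand: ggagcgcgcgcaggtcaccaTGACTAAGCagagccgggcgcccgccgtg
TXNRD1 (rose), chr12:104215660-104215708, plus strand: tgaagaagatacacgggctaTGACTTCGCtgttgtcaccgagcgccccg
TXNRD1 (rose), a second start, chr12:104286910-104286958, minus strand: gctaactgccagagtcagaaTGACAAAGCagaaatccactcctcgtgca
GSTP1 (fell), chr11:67583726-67583774, plus strand: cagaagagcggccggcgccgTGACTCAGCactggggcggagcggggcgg
PGD (fell), chr1:10398843-10398891, minus strand: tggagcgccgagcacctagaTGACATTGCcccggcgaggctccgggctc
The GSTP1 core holds the AP-1 letters and the other 5 printed do not. A match is a stretch of letters, not a binding site, and no binding was measured.

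The regulators moved in opposite directions. NFE2L2, which encodes NRF2, stood at 55.8, 43.0 and 39.6 CPM in the control libraries and at 116, 169 and 155 CPM in the resistant ones. Every resistant library was above every control library, and resistant replicate 1 was the lowest of its line. Its log2 fold change was 1.67 ± 0.16 (SE, adjusted p = 1.90e-06), a level 3.18 times as high, and 0.67 after GC and length adjustment (adjusted p = 4.35e-05). Genes within 1 percentage point of its GC content had a median of 1.11. AGPS, which overlaps NFE2L2 on the other strand, had 1.41 (0.62 after adjustment), and without a stated strand setting their reads cannot be told apart.

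KEAP1, the substrate adaptor that marks NRF2 for degradation, gave 101, 107 and 114 CPM in control and 41.7, 38.1 and 36.3 CPM in resistant libraries. The lines did not overlap, and within each line the values were close together. It fell by 1.47 ± 0.11 on the log2 scale (SE, adjusted p = 3.23e-07), a level 2.77 times as low. Adjustment left -0.23 (adjusted p = 0.0163), a call that ended without control replicate 3 (adjusted p = 0.0540). Genes of its GC content had a median of -1.21.

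BACH1, the repressor that competes with NRF2 at heme-responsive targets, was at 17.7, 13.3 and 15.1 CPM in control libraries and at 22.2, 29.8 and 33.0 CPM in resistant ones. The groups did not overlap, and resistant replicate 1 was again the nearest to the controls. It rose by 0.88 ± 0.16 (SE, adjusted p = 3.10e-04). After adjustment the sign turned to -0.42 (adjusted p = 0.00250), with a median of 1.26 for genes of its GC content.

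**Figure D2:**
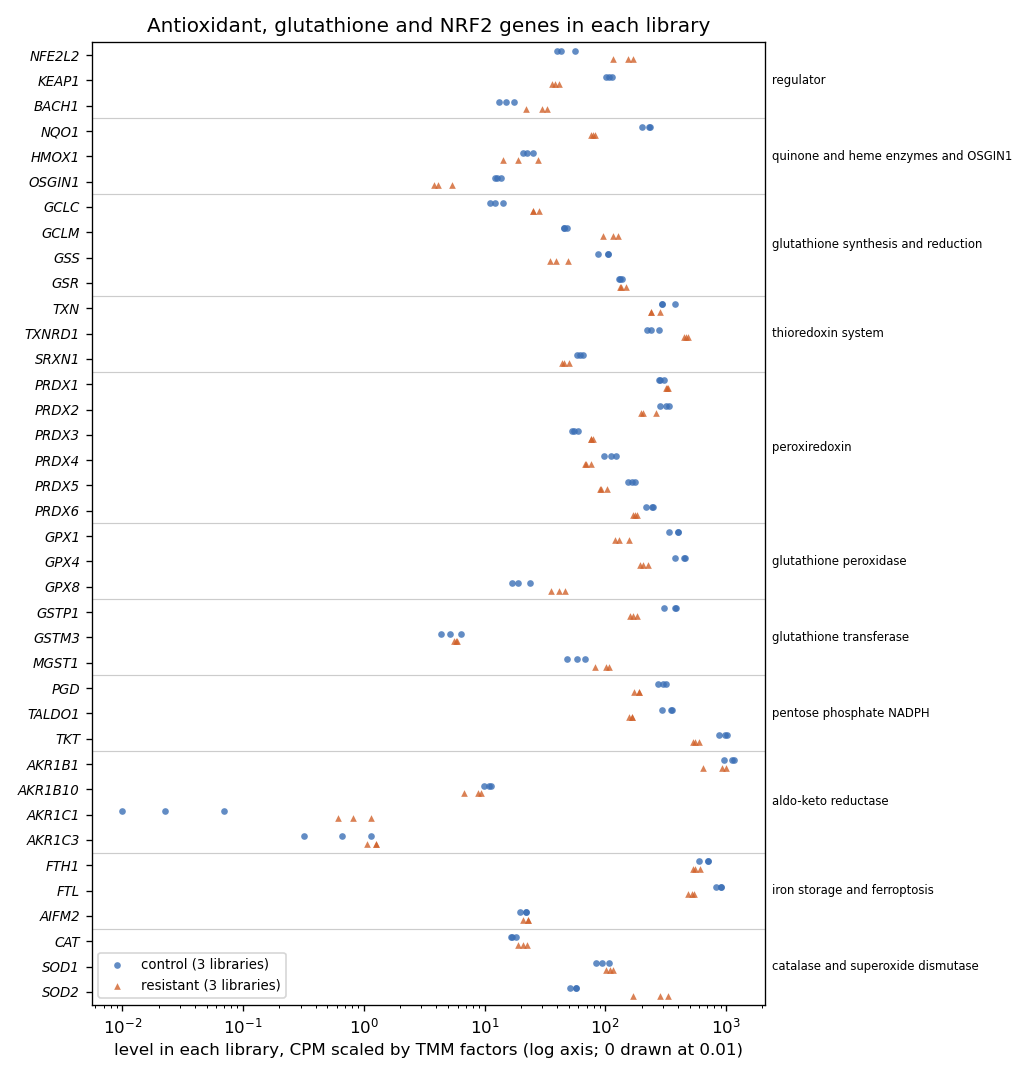
Levels of the 38 tested genes in each library as CPM scaled by TMM factors on a log axis (1 row per gene, circles for the 3 control and triangles for the 3 resistant libraries, a value of 0 drawn at 0.01). NFE2L2 and SOD2 triangles lie to the right of all circles, NQO1 and KEAP1 triangles lie to the left, and HMOX1, GSR and AIFM2 overlap.

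NQO1, the quinone reductase that is widely read as a marker of NRF2 activity, gave 203, 235 and 229 CPM in the control libraries and 76.7, 79.2 and 82.2 CPM in the resistant libraries. All resistant values lay well under the controls and close to each other. NQO1 fell by 1.49 ± 0.10 (SE, adjusted p = 2.14e-07), to a level 2.80 times as low. The change was -1.60 after adjustment (adjusted p = 4.28e-08), and genes of its GC content had a median of 0.11, so its fall was as large with the adjustment as without it.

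HMOX1, heme oxygenase 1, was at 20.7, 22.3 and 25.1 CPM in control and at 14.2, 18.9 and 27.8 CPM in resistant libraries. The resistant libraries spanned the control range. Its log2 fold change was -0.16 ± 0.20 (SE, adjusted p = 0.480). It depended on single libraries, with -0.46 (adjusted p = 0.0290) without resistant replicate 3 and 0.03 without resistant replicate 1. After adjustment it was 1.05 (adjusted p = 0.00107). OSGIN1, an oxidative stress-induced growth inhibitor, fell from 12.2, 12.8 and 13.6 CPM to 4.14, 3.83 and 5.42 CPM, with no overlap. It fell by 1.53 ± 0.17 on the log2 scale (SE, adjusted p = 4.75e-06), and was at -0.01 after adjustment (adjusted p = 0.965).

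Glutathione is made in 2 steps, by glutamate-cysteine ligase (GCLC, the catalytic subunit, and GCLM, the modifier subunit) and by glutathione synthetase (GSS). GCLC was at 14.3, 12.3 and 11.2 CPM in control libraries and at 25.4, 28.2 and 25.3 CPM in resistant ones. GCLM was at 45.3, 48.4 and 45.5 CPM and at 96.3, 116 and 128 CPM. Both were higher in every resistant library than in any control library. GCLC rose by 1.06 ± 0.13 (SE, adjusted p = 1.11e-05) and GCLM by 1.29 ± 0.12 (SE, adjusted p = 1.52e-06). After adjustment GCLC kept its call at 0.47 (adjusted p = 6.18e-04), while GCLM was at 0.15 (adjusted p = 0.161).

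GSS went the other way, from 87.2, 106 and 106 CPM to 49.4, 35.1 and 39.1 CPM. Resistant replicate 1 was the highest of its line and still under every control library. It fell by 1.28 ± 0.14 (SE, adjusted p = 5.44e-06), and by 0.29 after adjustment (adjusted p = 0.0135). GSR, which reduces oxidised glutathione with NADPH, was at 132, 138 and 130.0 CPM in control and 150, 135 and 133 CPM in resistant libraries. The groups overlapped, with 0.06 ± 0.10 on the log2 scale (SE, adjusted p = 0.597), which became 0.78 after adjustment (adjusted p = 1.54e-06), beside a median of -0.65 for genes of its GC content. Scaled by total counts alone it was called higher (0.40, adjusted p = 0.00372).

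In the thioredoxin system TXNRD1, the cytosolic selenoprotein that reduces thioredoxin, gave 278, 237 and 221 CPM in control and 448, 469 and 481 CPM in resistant libraries. The resistant libraries were all higher and lay close together. It rose by 0.93 ± 0.11 (SE, adjusted p = 7.71e-06), and by 0.32 after adjustment (adjusted p = 0.00113). Of 2 genes inside TXNRD1 on the same strand, EID3 rose (2.42, and 2.03 after adjustment) and the pseudogene RPL18AP3 fell (-1.58, and -0.57 after adjustment), and whether their reads were counted for TXNRD1 was not tested.

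TXN, thioredoxin itself, was at 294, 377 and 294 CPM in control and 238, 282 and 240.4 CPM in resistant libraries. The highest resistant library lay just under the lowest control library. Its fall of 0.34 ± 0.12 (SE, adjusted p = 0.0229) ended without control replicate 2 (adjusted p = 0.0959) or resistant replicate 3 (adjusted p = 0.0804), and with upper-quartile factors (adjusted p = 0.0554). Scaled by total counts alone it was -0.00096 (adjusted p = 0.995). After adjustment it was -1.62 (adjusted p = 5.00e-07), beside a median of 1.25 for genes of its GC content. SRXN1, sulfiredoxin, which restores overoxidised peroxiredoxins, fell by 0.41 ± 0.11 (SE, adjusted p = 0.00449), from 58.4, 65.8 and 61.3 CPM to 50.4, 45.9 and 43.7 CPM with no overlap. It turned to 0.21 after adjustment (adjusted p = 0.0237). That turned call ended without control replicate 1 or 3 or resistant replicate 2 (adjusted p = 0.110, 0.118 and 0.0817). With total counts alone the unadjusted call ended too (-0.06, adjusted p = 0.616).

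Peroxiredoxins reduce peroxides at a reactive cysteine. Of the 6 genes 4 fell and 1 rose (66.7% and 16.7%), beside 36.9% and 39.3% of all genes tested. After adjustment 3 were lower and 2 higher, and 3 calls had turned. PRDX4, the member of the endoplasmic reticulum, was at 98.1, 123 and 111 CPM in control and 76.5, 67.8 and 68.9 CPM in resistant libraries. The lines did not overlap. PRDX4 fell by 0.64 ± 0.11 (SE, adjusted p = 2.64e-04), and by 0.84 after adjustment (adjusted p = 9.63e-06). PRDX6, the 1-cysteine member that uses glutathione, went from 216, 251 and 243 CPM to 182, 169 and 177 CPM. It fell by 0.42 ± 0.10 (SE, adjusted p = 0.00197) and by 0.71 after adjustment (adjusted p = 2.13e-05), but was at -0.08 with total counts alone (adjusted p = 0.482). These 2 were the peroxiredoxins with the same call with and without adjustment.

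PRDX2, a cytosolic peroxiredoxin, fell from 286, 320.3 and 340.1 CPM to 265, 198 and 205 CPM. Resistant replicate 1 was close to the lowest control library. Its log2 fold change was -0.50 ± 0.13 (SE, adjusted p = 0.00314), -0.16 with total counts alone (adjusted p = 0.277) and 0.47 after adjustment (adjusted p = 8.96e-05). HOOK2, which overlaps PRDX2 on the same strand, had -0.10 at 11.4 CPM in control libraries, and 1.24 after adjustment. PRDX5, found in mitochondria, peroxisomes and cytosol, fell from 154, 178 and 165 CPM to 91.1, 92.4 and 103 CPM, with no overlap. It was at -0.79 ± 0.10 (SE, adjusted p = 2.20e-05) before adjustment and at 0.28 after it (adjusted p = 0.0400). The latter call ended without any 1 of 5 libraries, all but resistant replicate 1, with adjusted p from 0.0635 to 0.270.

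PRDX3, the mitochondrial member, rose from 59.1, 55.5 and 53.2 CPM to 76.0, 78.9 and 76.5 CPM. The 3 resistant libraries lay close together and above all controls. The change was 0.46 ± 0.10 (SE, adjusted p = 0.00118), and -0.43 after adjustment (adjusted p = 6.87e-04). PRDX1, an abundant cytosolic member, was at 284, 304 and 281 CPM and at 330.3, 318 and 324 CPM, without overlap. Its log2 fold change of 0.16 ± 0.09 did not pass the test (SE, adjusted p = 0.127), and it was -0.01 after adjustment. It was called higher with upper-quartile factors (0.23, adjusted p = 0.0449) and when only genes at 1 CPM or more in 3 libraries were kept (0.21, adjusted p = 0.0484), as well as with total counts alone (0.50). MMACHC, which overlaps PRDX1 on the other strand, had -1.39 at 27.6 CPM in control libraries, and -1.30 after adjustment.

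**Figure D3:**
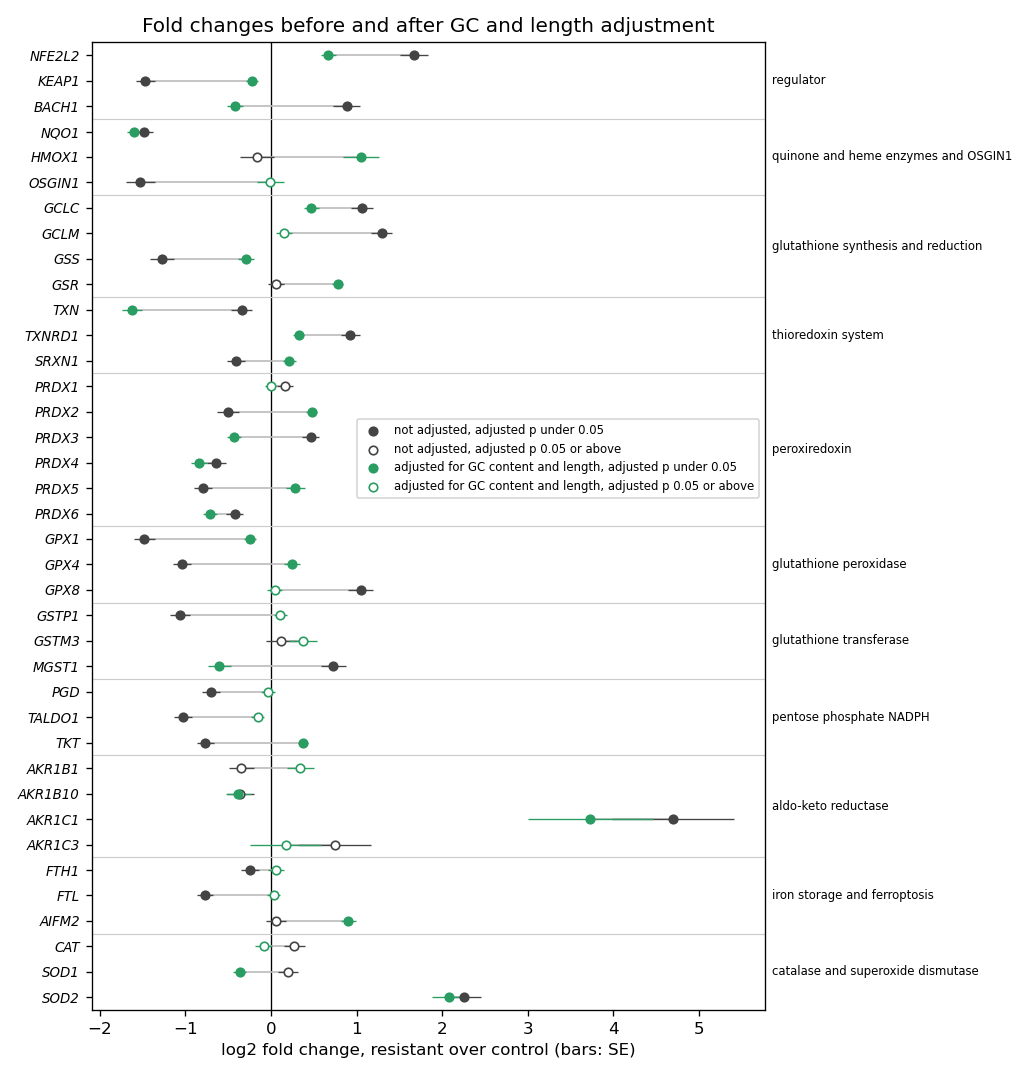
Log2 fold change of each tested gene, resistant over control, before (dark) and after (green) adjustment for GC content and transcript length, with SE bars and filled symbols for an adjusted p under 0.05. NQO1, PRDX4, AKR1B10 and SOD2 move little between the fits, while BACH1, PRDX3 and MGST1 cross from right to left and PRDX2, PRDX5, GPX4 and TKT from left to right.

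Glutathione peroxidases use glutathione to reduce peroxides. GPX1, the cytosolic selenoenzyme, gave 337, 403 and 399 CPM in the control libraries and 157, 121 and 130 CPM in the resistant libraries. The lines were far apart, with resistant replicate 1 the highest of its line. It fell by 1.48 ± 0.12 (SE, adjusted p = 6.32e-07) to a level 2.79 times as low. Adjustment for GC and length left -0.25 (adjusted p = 0.00615), and adjustment for GC alone left -0.12 (adjusted p = 0.160). Reads on 2 GPX1 pseudogene rows amounted to 2.74% to 3.10% of those of GPX1 and these rows together.

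GPX4, the selenoenzyme that reduces lipid hydroperoxides in membranes and guards cells from ferroptosis, was at 381, 445 and 456 CPM in control and 206, 194 and 224 CPM in resistant libraries. Every resistant library was far under every control library. GPX4 fell by 1.04 ± 0.11 (SE, adjusted p = 3.07e-06), a level 2.06 times as low. It was at 0.25 after adjustment (adjusted p = 0.0349), a call that ended without any 1 library other than resistant replicate 1 (adjusted p from 0.0659 to 0.237). Genes of its GC content had a median of -1.32.

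GPX8, a membrane-anchored member of the endoplasmic reticulum, rose from 23.8, 18.9 and 16.8 CPM to 35.6, 46.1 and 41.3 CPM, with no overlap. The change was 1.05 ± 0.15 (SE, adjusted p = 4.01e-05), and 0.04 after adjustment (adjusted p = 0.694). The other 2 members were too low to test. GPX2 had 2 counts in control libraries, both in replicate 1, and 0 in resistant libraries, and CHURC1 overlaps it. GPX3 had 13 counts in each line, a ratio of 1.03 with a 95% exact interval of 0.441 to 2.42.

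Of 3 glutathione transferase genes, which couple glutathione to electrophiles, GSTP1 was the most abundant per kilobase. It was at 304, 380 and 389 CPM in control and 184, 160 and 171 CPM in resistant libraries, with no overlap. GSTP1 fell by 1.06 ± 0.12 (SE, adjusted p = 4.87e-06), and was at 0.11 after adjustment (adjusted p = 0.242). Adjusted for GC alone it was called higher (0.26, adjusted p = 0.0105). MGST1, a microsomal transferase with peroxidase activity, rose from 48.0, 68.3 and 58.8 CPM to 82.3, 107 and 101 CPM. No control library reached the resistant range. The log2 fold change was 0.73 ± 0.14 (SE, adjusted p = 6.09e-04) before and -0.60 after adjustment (adjusted p = 0.00196). GSTM3, a mu-class transferase, was at 5.22, 6.38 and 4.39 CPM and at 5.83, 5.58 and 5.96 CPM. The groups overlapped, with 0.12 ± 0.18 (SE, adjusted p = 0.558). After adjustment it was at 0.37 (adjusted p = 0.0658), and it was called without control replicate 2 (0.50, adjusted p = 0.0308).

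The pentose phosphate pathway feeds NADPH to both reductases. Of its 3 genes here only PGD encodes an enzyme that makes NADPH. All 3 fell before adjustment, beside 36.9% of all genes tested. TKT, transketolase, gave 880, 971 and 1026 CPM in control and 603, 533 and 553 CPM in resistant libraries. TALDO1, transaldolase, gave 295, 349 and 358 CPM and 167, 158 and 167 CPM. PGD, which makes NADPH from 6-phosphogluconate, gave 274, 320.4 and 303 CPM and 172, 189 and 192 CPM. The lines did not overlap for any of them, as was so for 80.3% of all genes tested. Control replicate 1 was the lowest control library for all 3.

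Their log2 fold changes were -0.77 ± 0.10 for TKT (SE, adjusted p = 2.14e-05), -1.02 ± 0.11 for TALDO1 (SE, adjusted p = 2.82e-06) and -0.70 ± 0.10 for PGD (SE, adjusted p = 5.01e-05). Genes of their GC content had medians of -1.11 (TKT), -0.88 (TALDO1) and -0.58 (PGD). After adjustment TKT was called higher at 0.37 (adjusted p = 2.71e-04). TALDO1 was at -0.16 (adjusted p = 0.0848) and PGD at -0.03 (adjusted p = 0.751). TALDO1 was called lower in the adjusted fit without control replicate 1 (adjusted p = 0.0261) or resistant replicate 3 (adjusted p = 0.0498), and with GC alone (-0.21, adjusted p = 0.0291).

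Aldo-keto reductases reduce aldehydes and ketones with NADPH, and several are strongly induced by NRF2 in other cells. AKR1C1, which reduces steroids and carbonyls, had 1, 3 and 0 counts in the control libraries and 35, 26 and 49 counts in the resistant ones. Even the lowest resistant library held far more than any control library, though these are low counts. The ratio of summed counts after scaling was 28.4, with a 95% exact interval of 10.8 to 106 that covers counting error only. It rose by 4.70 ± 0.72 (SE, adjusted p = 7.36e-05), and by 3.73 after adjustment (adjusted p = 8.14e-04). Leaving out 1 library gave 4.11 (without control replicate 3) to 5.89 (without control replicate 2).

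AKR1C2, a close copy of AKR1C1, had 0 counts in every control library and 0, 2 and 9 in the resistant ones, most of them in replicate 3. Against a floor of 3 counts over the control group its 11 resistant counts stood 3.79-fold higher after scaling, with no test. That ratio takes the 11 counts as exact, so it is not a strict lower limit. It rests on resistant replicate 3, since without that library 2 counts remain, which is under the floor and gives no ratio. AKR1C3, a prostaglandin and steroid reductase, was at 1.16, 0.322 and 0.662 CPM and at 1.06, 1.26 and 1.27 CPM. The groups overlapped through control replicate 1, with 0.74 ± 0.42 (SE, adjusted p = 0.128), and without that library it was called (1.22, adjusted p = 0.0252). Reads of these near-identical genes may be divided between them in a way that is not stated. Their 3 rows summed gave a log2 fold change of 1.52 (adjusted p = 0.00297).

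AKR1B1, aldose reductase, was at 967, 1175 and 1112 CPM in control and 639, 924 and 999 CPM in resistant libraries. Resistant replicate 3 lay inside the control range, and resistant replicate 1 far under it. The log2 fold change was -0.34 ± 0.15 (SE, adjusted p = 0.0549). It was called lower without control replicate 1, resistant replicate 2 or resistant replicate 3 (adjusted p from 0.0220 to 0.0469) and by DESeq2 (adjusted p = 0.0368). After adjustment the sign turned (0.34, adjusted p = 0.0737), and without resistant replicate 1 that fit called it higher (0.53, adjusted p = 1.50e-05). AKR1B10, a retinal and aldehyde reductase, was at 11.3, 9.97 and 10.8 CPM and at 6.80, 8.88 and 9.32 CPM. All resistant values were under all control values, and the log2 fold change was -0.36 ± 0.16 (SE, adjusted p = 0.0546). Without control replicate 2 or resistant replicate 3 it was called (adjusted p = 0.0438 and 0.0461). It was called lower after adjustment (-0.38, adjusted p = 0.0353), a call that ended without control replicate 1 or 3 or resistant replicate 1 (adjusted p = 0.0908, 0.0844 and 0.0922).

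Ferritin stores iron in a shell of heavy and light chains. FTL, the light chain, gave 833, 904 and 917 CPM in control and 525, 488 and 542 CPM in resistant libraries. The lines were far apart. FTL fell by 0.77 ± 0.10 (SE, adjusted p = 1.32e-05), and was at 0.03 after adjustment (adjusted p = 0.708). FTH1, the heavy chain with the ferroxidase site, was at 602, 715 and 705 CPM and at 538, 555 and 613 CPM. Here resistant replicate 3 exceeded control replicate 1. Its fall of 0.24 ± 0.10 only just passed the test (SE, adjusted p = 0.0497). The call ended without control replicate 2 or 3 or resistant replicate 1 or 2 (adjusted p from 0.0533 to 0.124). It also ended when its 26 pseudogene rows were summed with it (adjusted p = 0.0548). These rows held 1.01% to 1.87% of the reads of FTH1 and the rows together. FTH1 was at 0.10 with total counts alone and at 0.06 after adjustment (adjusted p = 0.605).

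AIFM2, which encodes FSP1, the oxidoreductase that protects membranes from lipid peroxidation through ubiquinone, was at 19.7, 22.1 and 22.1 CPM in control and at 22.7, 21.0 and 22.7 CPM in resistant libraries. The groups overlapped, with 0.06 ± 0.11 (SE, adjusted p = 0.649), and 0.40 with total counts alone (adjusted p = 0.00596). Genes of its GC content had a median of -0.90, and its adjusted log2 fold change was 0.90 (adjusted p = 3.42e-06).

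SOD2, the manganese superoxide dismutase of mitochondria, had the largest fold change of the well-counted genes here. It was at 57.3, 57.0 and 50.7 CPM in the control libraries and at 171, 286 and 330.3 CPM in the resistant ones. All resistant libraries were far above the controls, and replicate 1 was the lowest of them. SOD2 rose by 2.26 ± 0.20 (SE, adjusted p = 9.49e-07), to a level 4.77 times as high. After adjustment it was at 2.08 (adjusted p = 3.39e-06), beside a median of 0.16 for genes of its GC content. WTAP and ACAT2, which overlap SOD2 on the other strand, had 0.35 and 0.59 (-0.09 and 0.75 after adjustment), both smaller than the change of SOD2.

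SOD1, the copper and zinc dismutase of the cytosol, was at 107, 94.6 and 83.2 CPM and at 109, 116 and 102 CPM. The groups overlapped, with 0.20 ± 0.12 (SE, adjusted p = 0.140), and the adjusted fit called it lower (-0.36, adjusted p = 0.00150). CAT, catalase, which breaks down hydrogen peroxide in peroxisomes, was at 16.7, 16.7 and 18.1 CPM and at 19.02, 22.6 and 20.7 CPM. All resistant values were above the controls, and 0.27 ± 0.12 narrowly missed the threshold (SE, adjusted p = 0.0540). CAT was called higher without resistant replicate 1 (0.32, adjusted p = 0.0228), with upper-quartile factors (0.34, adjusted p = 0.0217), with a filter of 1 CPM (0.32, adjusted p = 0.0246) and with total counts alone (0.62, adjusted p = 4.83e-04), and was at -0.09 after adjustment.

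Per kilobase of transcript, the 2 ferritin chains and AKR1B1 were the highest of the group in both lines. FTL was at 1007 ± 51.4 CPM per kilobase in control and 590.3 ± 31.5 in resistant libraries (SD, n = 3), FTH1 at 882 ± 81.5 and 744 ± 51.9, and AKR1B1 at 770 ± 75.9 and 606 ± 135. Below them in control libraries stood GPX4 (494 ± 46.8), GSTP1 (483 ± 62.4), GPX1 (473 ± 45.6) and TXN (428 ± 63.7 CPM per kilobase), whose order did not exceed their spread. In the resistant line TXN (337 ± 33.1) and PRDX1 (317 ± 6.13) came next, with levels that did not differ beyond their spread. SOD2 went from 55.5 ± 3.75 to 265 ± 83.2 CPM per kilobase, and its resistant level did not differ beyond its spread from PRDX2 (251 ± 41.7) or GPX4 (240.4 ± 17.7). As a share of all counts, the 41 genes together made up 0.681% to 0.761% of a library, with the lines overlapping. On the TMM scale used for the levels above they summed to 7579 to 8606 CPM in control and 5996 to 6613 CPM in resistant libraries, without overlap.

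A wider list of 100 related genes, of which 90 were tested, set these changes in context. It had 34 genes that rose and 47 that fell, 37.8% and 52.2% beside 39.3% and 36.9% of all genes tested, with a median log2 fold change of -0.35. After adjustment 32 were higher and 30 lower, 35.6% and 33.3% beside 33.9% and 33.1%, close to the background. The counts of its small groups stand against the same background shares. Cystine import and NADPH supply was the group with most rises, 10 of 15 (66.7%), with 5 that fell (33.3%), and 9 were higher (60.0%) and 1 lower (6.67%) after adjustment. SLC7A11, the cystine transporter that supplies glutathione synthesis, was at 43.5, 42.1 and 41.3 CPM in control and 409, 589 and 661 CPM in resistant libraries. Its log2 fold change was 3.71 ± 0.17 (SE, adjusted p = 1.75e-08), and 2.16 after adjustment. CTH, which makes cysteine from cystathionine, rose from 3.69 ± 0.109 to 41.4 ± 4.35 CPM (SD, n = 3), a change of 3.49 (2.94 after adjustment). RPE, a pentose phosphate epimerase, rose by 1.69 (1.45 after adjustment).

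Among the KEAP1 ligase, small MAF and related genes 2 of 10 rose and 8 fell (4 and 2 after adjustment), where 39.3% and 36.9% of all genes did (33.9% and 33.1% after adjustment). CUL3, the ligase scaffold, rose by 0.80 and turned to -0.43 after adjustment. MAFK, a DNA-binding partner of NRF2, fell by 1.07 and turned to 0.28, and DPP3, a KEAP1-binding peptidase, fell by 1.27 (-0.08 after adjustment). Of 17 other glutathione transferase and glutathione-using genes 9 rose and 7 fell (6 and 8 after adjustment). GSTZ1, maleylacetoacetate isomerase, fell by 2.004 (-1.15 after adjustment), GSTK1, a mitochondrial and peroxisomal transferase, by 1.33 (-0.57), and HAGH, a glyoxalase, by 1.32 (-0.06).

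Of 16 other thioredoxin, glutaredoxin and methionine sulfoxide genes 3 rose (18.8%) and 10 fell (62.5%), and 2 and 9 were called after adjustment (12.5% and 56.2%), beside the same background. TXNIP, which binds and inhibits thioredoxin, fell by 1.34 and by 1.67 after adjustment. The methionine sulfoxide reductases MSRB1 and MSRB2 fell by 2.0 and 1.37 (-0.88 and -1.22 after adjustment). Of 15 heme, iron and ferroptosis genes 6 rose and 7 fell (5 and 3 after adjustment). ACSL4, which loads membranes with oxidisable fatty acids, rose by 1.85 (0.51 after adjustment), IREB2, an iron-responsive RNA-binding protein, rose by 1.31 (0.02), and STEAP3, a ferrireductase, fell by 1.13 (-0.13).

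Of 17 other drug and quinone metabolism genes 4 rose (23.5%) and 10 fell (58.8%), and 6 and 7 were called after adjustment (35.3% and 41.2%), beside 33.9% and 33.1% of all genes. Here 2 export pumps for glutathione and glucuronide conjugates moved in opposite directions. ABCC2 was at 3.996, 2.33 and 2.45 CPM in control and 32.9, 31.2 and 33.6 CPM in resistant libraries, a rise of 3.48 ± 0.19 (SE, adjusted p = 6.19e-08) and of 2.90 after adjustment. ABCC3 went from 76.3, 91.3 and 100.1 CPM to 12.5, 10.4 and 11.5 CPM, with a log2 change of -2.96 ± 0.14 (SE, adjusted p = 2.19e-08) and -1.71 after adjustment. CBR3, a carbonyl reductase, fell by 2.11 (-0.97 after adjustment).

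**Figure D4:**
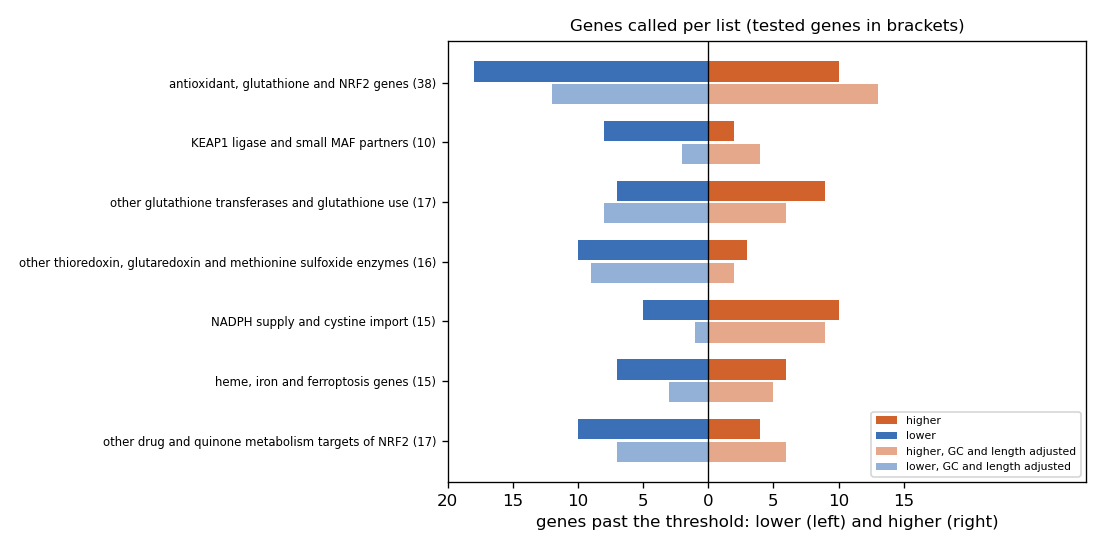
Number of genes called higher (right) and lower (left) in the resistant line for the antioxidant genes and 6 groups of related genes, with tested genes in brackets, before (dark) and after (pale) GC and length adjustment. Of the 38 antioxidant genes 18 fell and 10 rose before adjustment, against 12 and 13 after it, and cystine import and NADPH supply has the most genes to the right among the 6 groups.

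Across 6 ways of scaling or adjusting (TMM, total counts, upper-quartile factors, DESeq2, GC content, and GC content with length), 9 of the 38 genes kept their call. NFE2L2, GCLC, TXNRD1, AKR1C1 and SOD2 were higher in each, and KEAP1, NQO1, GSS and PRDX4 were lower in each. This count across the 6 was not compared with the share of all genes. Of these genes AKR1C1 was low, with 1, 3 and 0 counts in control and 35, 26 and 49 in resistant libraries. The call of KEAP1 after GC and length adjustment ended without control replicate 3 (adjusted p = 0.0540). Between the TMM fit and the fit with GC content and length, 31.6% of the 38 kept their call, beside 46.1% of 13960 genes. Among the 9 genes, the transcript of NRF2 itself was higher, and so were those of its known targets GCLC, TXNRD1 and AKR1C1. The transcript of NQO1, one of its best-known targets, was lower.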

How the data were processed

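The authors deposited raw counts per gene symbol for 6 libraries, 3 of each line; HISAT2 2.0.4 is named in the submitters' processing notes. Counting program, strand setting, build and annotation: not given in the sources used here. All columns matched a sample title (0 left over). Genes passing filterByExpr (16642 of 54261) were fitted with edgeR 4.0.16 (R 4.3.3; TMM, quasi-likelihood test, no covariate, Benjamini-Hochberg adjustment, threshold 0.05). SE was taken as |log2 fold change| divided by the square root of F. A count of 0 allows 3 counts, 0.0662 to 0.0706 CPM. Intervals cover counting error only, and floors cover only that of the counts of 0.

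GC content and length came from GENCODE transcripts (83.9% of tested genes). Natural splines (6 and 5 degrees of freedom, prior count 1) gave the offset. The test was run on simulated counts with few changed genes and no trend with GC content. That run cannot speak to the many changed genes or the GC trend of these data. The alternatives were other scalings (DESeq2 1.42.0 among them), filters, left-out libraries and a replicate block. Every gene of the set is named, and of each related group the 3 with the smallest p. Genes and lists were chosen with earlier results of these data known.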

Additional observations from a re-analysis of the deposited data

How the results depend on the processing

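Depth limits GPX2, GPX3 and the AKR1C genes. The count of antioxidant genes called higher was 17 with total counts alone instead of 10, where that of all genes was 7848 instead of 6540. The wider list had 30 genes lower after GC and length adjustment instead of 47. Restricted without adjustment to genes with a GC value, a setting chosen after seeing the data, 13 antioxidant genes were higher and 16 lower. Of the 13960 genes in that fit 5579 were higher and 5361 lower. The numbers of the libraries do not pair them (same-number correlations -0.13, -0.013 and -0.058), and the fit with a replicate block called 6246 genes higher and 5851 lower, ended the call of FTH1 (adjusted p = 0.0944) and called AKR1B1 lower (-0.37, adjusted p = 0.0270) and, with the adjustment, higher (0.31, adjusted p = 0.0418). Leaving out 1 library at a time changed neither call nor direction for 28 of 38 genes before adjustment and 24 after it.

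With GC content alone and with GC content and length, the log2 fold changes that turned sign were -0.35 and -0.42 for BACH1, 0.92 and 1.05 for HMOX1, 0.18 and 0.21 for SRXN1, 0.57 and 0.47 for PRDX2, -0.58 and -0.43 for PRDX3, 0.47 and 0.28 for PRDX5, 0.36 and 0.25 for GPX4, 0.26 and 0.11 for GSTP1, -0.57 and -0.60 for MGST1, 0.32 and 0.37 for TKT, 0.24 and 0.34 for AKR1B1, 0.16 and 0.058 for FTH1, 0.12 and 0.034 for FTL, -0.19 and -0.086 for CAT, and -0.31 and -0.36 for SOD1. GPX8 turned only with GC content alone (-0.074), and PRDX1 only with GC content and length (-0.0053). With total counts alone HMOX1 turned to 0.18 and FTH1 to 0.099. The cause was not tested.

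Over the left-out libraries the sign was not stable for HMOX1 (-0.46 to 0.032), GSR (-0.0057 to 0.089), GSTM3 (-0.038 to 0.22) and AIFM2 (-0.049 to 0.092). After adjustment the same held for OSGIN1 (-0.20 to 0.11), PRDX1 (-0.045 to 0.012), PGD (-0.091 to 0.026), AKR1C3 (-0.18 to 0.64), FTH1 (-0.068 to 0.11) and FTL (-0.063 to 0.068).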
